A study of Mus musculus with 22 samples.

Results

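The genes described here are 37 p53 targets, DNA damage kinases and apoptosis genes, listed by symbol and read from each gene's probe set with the highest mean over all 22 arrays. A probe set carrying 1 gene symbol named 35 of the 37 among 18194 genes so named, and 33 were bright enough to be tested among 10772 genes. Their transcripts were measured on Affymetrix mouse expression arrays in cerebellar granule cells taken from postnatal day 7 pups and cultured.

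The arrays formed 3 experiments of 2 groups each. In the first, cells labelled Chd7 mutant (n = 4) were set against cells labelled wild type (n = 4), neither of them treated. The study's methods describe homozygous floxed Chd7 alleles deleted by an Atoh1-Cre driver, which is active in the granule lineage, with floxed animals lacking Cre as the wild type, and the study takes recombination in the posterior lobe to be probably less complete. In the second, cells received 10 µM ICRF-193 (n = 4) or its solvent DMSO (n = 4) for 12 h. In the third, cells grown with an agent labelled Smo2 (n = 3) were set against cells grown without it (n = 3), and the labels give neither its dose nor its duration. For such cultures the methods describe an agonist of Smoothened, and whether it and Smo2 are the same compound is not stated. The labels give every sample the strain C56Bl6/J, while the methods name C57BL/6N pups whose sex was not distinguished. All samples are called biological replicates, and nothing says how many pups went into each. The p-values therefore measure the spread between these samples, which may be technical.

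p53 is a transcription factor held at low levels by the ubiquitin ligase Mdm2, itself a p53 target. After DNA damage the kinase ATM and the checkpoint kinases CHK1 and CHK2 (Atm, Chek1, Chek2) relay the break to p53 and to the cell cycle machinery, and p53 then raises genes for arrest, repair and cell death. Death by the mitochondrial route is set by the balance of the Bcl2 family, in which Bcl2, Bcl2l1 and Mcl1 protect while the BH3-only proteins Bbc3 (PUMA), Pmaip1 (NOXA), Bcl2l11 (BIM) and Bid promote it, and it runs through Apaf1 and caspase 9. In the postnatal cerebellum granule cell progenitors divide rapidly under Sonic hedgehog, and dividing progenitors and young neurons are known to be sensitive to DNA breaks. ICRF-193 is a catalytic inhibitor of both type II topoisomerases that holds the enzyme as a closed clamp on DNA. Chd7 is an ATP-dependent chromatin remodeller.

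The promoters of the p53 targets that the results turn on are shown first, as RefSeq gives them in GRCm38.p6, each read 5′ to 3′ on the gene's strand. Capitals mark matches to the p53 decamer, the 10-base unit that p53 binds in pairs. The unit's consensus is its own reverse complement, so that 1 search covers both strands. Aen, Ccng1 and Eda2r are printed whole because they rose after ICRF-193. Shorter stretches of Cdkn1a and Mdm2 are added because these well known targets were not called with ICRF-193. The windows are chr7:78895808-78896107 on the plus strand for Aen, chr11:40755237-40755536 on the minus strand for Ccng1, chrX:97377160-97377459 on the minus strand for Eda2r, chr17:29090881-29090962 on the plus strand for Cdkn1a and chr10:117710910-117710969 on the minus strand for Mdm2.
Aen: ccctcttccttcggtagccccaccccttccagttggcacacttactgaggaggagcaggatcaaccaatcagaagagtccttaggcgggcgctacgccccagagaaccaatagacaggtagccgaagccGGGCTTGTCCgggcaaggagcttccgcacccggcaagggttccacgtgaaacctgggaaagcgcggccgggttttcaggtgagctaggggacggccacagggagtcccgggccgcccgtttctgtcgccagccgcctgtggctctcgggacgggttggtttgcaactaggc
Ccng1: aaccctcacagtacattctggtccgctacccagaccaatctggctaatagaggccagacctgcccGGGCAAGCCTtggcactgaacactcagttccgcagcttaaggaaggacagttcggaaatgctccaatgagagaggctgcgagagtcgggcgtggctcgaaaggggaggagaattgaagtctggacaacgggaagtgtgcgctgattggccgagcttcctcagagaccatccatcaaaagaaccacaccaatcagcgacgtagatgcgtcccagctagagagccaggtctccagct
Eda2r: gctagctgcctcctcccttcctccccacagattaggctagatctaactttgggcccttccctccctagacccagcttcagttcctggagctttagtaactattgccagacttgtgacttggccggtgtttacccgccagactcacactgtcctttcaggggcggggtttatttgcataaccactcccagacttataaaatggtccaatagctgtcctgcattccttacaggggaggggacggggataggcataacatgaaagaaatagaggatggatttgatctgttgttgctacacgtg
Cdkn1a: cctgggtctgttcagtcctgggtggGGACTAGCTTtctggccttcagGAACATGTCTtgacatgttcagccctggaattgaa
Mdm2: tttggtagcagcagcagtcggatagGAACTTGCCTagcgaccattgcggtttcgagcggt
The decamer lay at -185 to -176 from the start of Ccng1, at -121 to -112 from the start used here for Aen, and at -186 to -177 for Mdm2. From the start of the other Aen entry the same decamer lay downstream, at 11 to 20. Cdkn1a has 2 promoter entries. The printed entry held 2 matches, at -73 to -64 and at -51 to -42 from its start, and the other entry held none. Whether p53 binds these matches was not tested. No match stood in the Eda2r window, which says only that these letters are not there. Of the 26 tested members with a promoter entry 8 (30.8%) held a match, beside 2745 of 32851 promoter windows of the same length (8.36%) and 9.55% of all genes. Many members were listed because they are known p53 targets, so this share describes the list and nothing measured here. The genes themselves spanned 2.1 to 176 kb with a median of 21.9 kb, and only Bcl2 was longer than 100 kb.

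Of 10 granule lineage markers 9 were named, none was at the floor on all arrays, and their summed signals were 63455 to 99596, so the labelled cell type was present in every group. The Chd7 probe set that reads the change fell by 2.03 on the log2 scale, from 11.33, 11.27, 11.66 and 11.72 in control arrays to 8.99, 9.02, 9.89 and 9.98 in mutant arrays (SE 0.25, limma over every bright probe set, adjusted p = 0.00334). The brighter Chd7 probe set differed by -0.25 (SE 0.13) and was not called (adjusted p = 0.298), although both mutant arrays lay below both control arrays within each of the replicate pairs described next. In the Chd7 and ICRF-193 experiments replicates 1 and 2 of a group were alike, as were replicates 3 and 4, so values within each pair are given where they matter. The labels do not say what these pairs were.

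Every change below is a difference of means on the log2 scale after quantile normalization, a value of 1 being a doubling of signal, and limma gave each a two-sided p, adjusted by Benjamini and Hochberg's method across the 10772 genes. A gene is called when its adjusted p is under 0.05. Arrays give intensities and no counts, so their number limits the precision. RNA came from whole cultures, in which fewer cells of a type and less RNA per cell cannot be told apart.

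Of the 33 tested members, 4 rose (12.1%) and 1 fell (3.03%) after ICRF-193, beside 3.14% of all genes that rose and 3.46% that fell. In the Chd7 mutant 2 rose (6.06%) and 1 fell (3.03%), close to the 5.07% and 3.82% of all genes. With Smo2 11 rose (33.3%) and 10 fell (30.3%), where 29.7% of all genes rose and 39% fell. The median change of the members was 0.15 after ICRF-193, 0.12 in the mutant and 0.10 with Smo2, beside 0.01, 0.00 and -0.09 over all genes tested. Cdkn1a, Sesn2, Zmat3, Xpc, Ei24, Bcl2l1 and Mcl1 were called in none of the 3 comparisons.

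**Figure D1:**
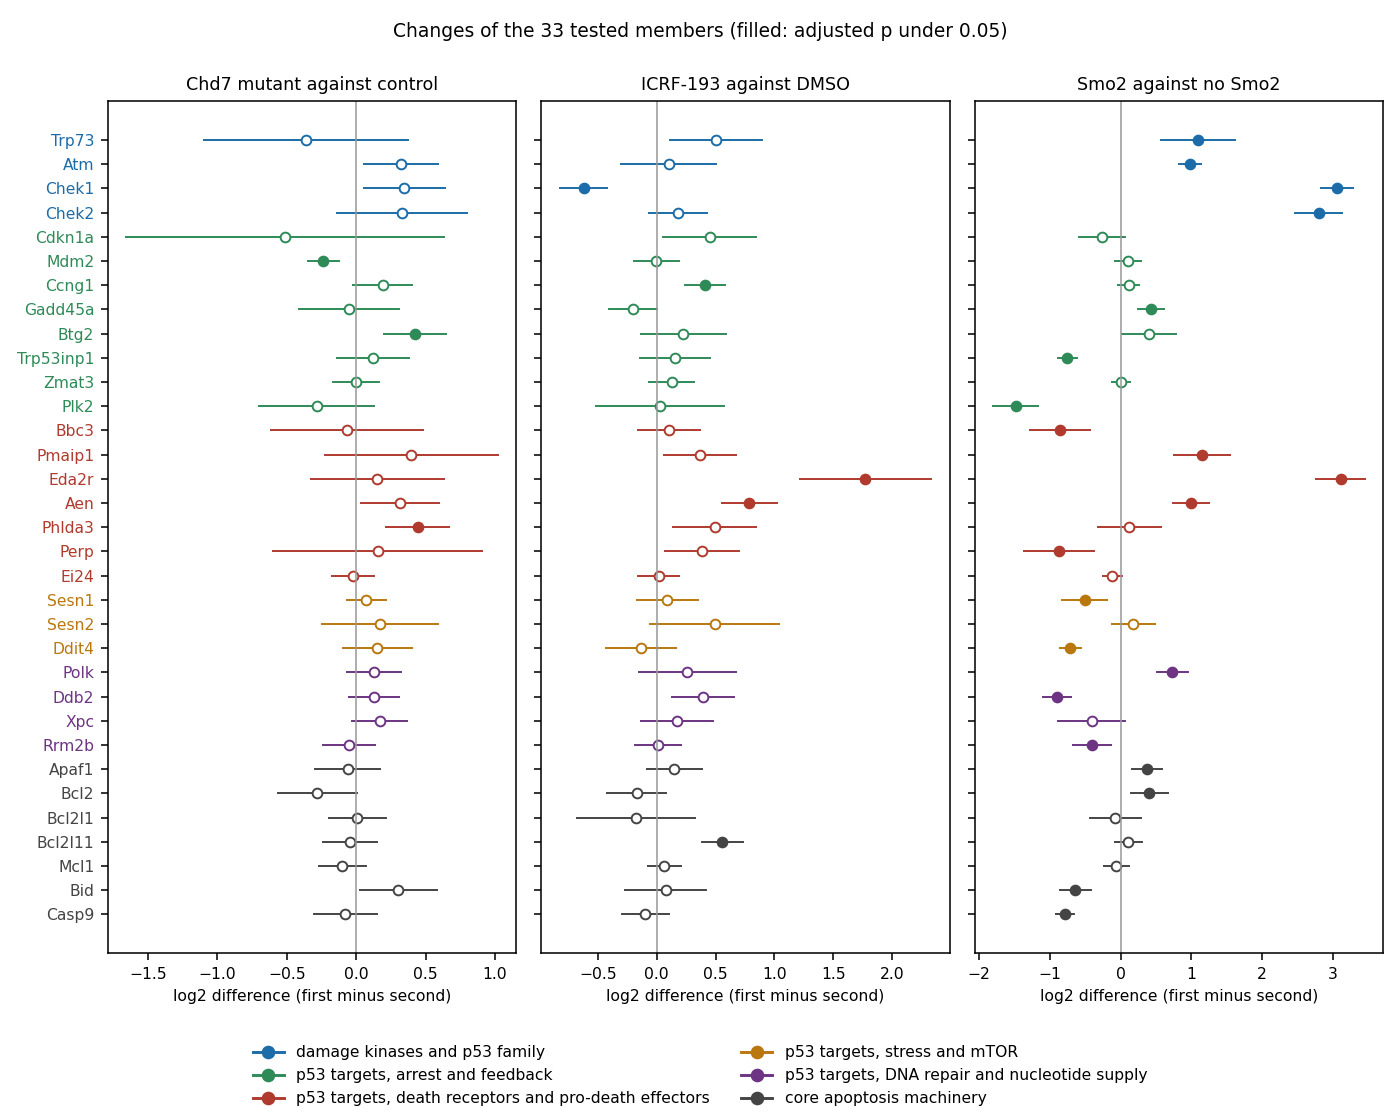
Log2 difference (x axis, scaled separately in each panel) of the 33 tested members in the 3 comparisons, with bars for the 95% confidence interval of the limma fit and filled points for genes called at an adjusted p under 0.05, coloured by role. The called members number 3, 5 and 21 from left to right, and the checkpoint kinases Chek1 and Chek2 and the receptor Eda2r lie farthest from 0 with Smo2.

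The ICRF-193 experiment asks which transcripts depend on type II topoisomerase activity. Genes for a receptor of the tumour necrosis factor family, a nuclease, a cyclin and a BH3-only protein rose, and that for a checkpoint kinase fell. Neither Apaf1 nor Casp9 of the mitochondrial caspase route was called.

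Eda2r, that receptor and a p53 target, rose most among the members. It read 5.93, 6.83, 7.10 and 6.94 with DMSO and 8.39, 8.31, 8.42 and 8.78 with ICRF-193. Every treated array lay above every DMSO array, and the means differed by 1.77 (SE 0.24, 3.42-fold, limma adjusted p = 0.0031). The rise was 1.97 within replicates 1 and 2 and 1.58 within replicates 3 and 4. Aen, a nuclease of apoptotic DNA breakdown that p53 induces, read 8.31, 8.15, 8.20 and 7.89 with DMSO and 8.93, 8.80, 8.92 and 9.06 with ICRF-193. It rose by 0.79 (SE 0.10, 1.73-fold, adjusted p = 0.00243), again with no overlap. A dimmer Aen probe set was higher by 0.61 and was not called.

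Bcl2l11, which encodes the BH3-only protein BIM, read 9.73, 9.58, 9.67 and 9.64 with DMSO and 10.33, 10.07, 10.22 and 10.25 with ICRF-193. The groups did not overlap, and the rise was 0.56 (SE 0.08, 1.47-fold, adjusted p = 0.0032). Of its 4 bright probe sets 3 were called, with changes from 0.56 to 1.00. Ccng1 (cyclin G1), an early p53 target that feeds back on Mdm2, read 10.97, 11.04, 10.85 and 10.95 with DMSO and 11.39, 11.24, 11.43 and 11.38 with ICRF-193. It rose by 0.41 (SE 0.07, 1.33-fold, adjusted p = 0.0129), and 2 of its 3 bright probe sets were called.

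Chek1, the kinase that answers stalled replication and is high in dividing cells, moved the other way. It read 7.72, 7.80, 7.78 and 8.01 with DMSO and 7.26, 7.11, 7.32 and 7.13 with ICRF-193, so that every treated array was below every DMSO array. The fall was 0.62 (SE 0.09, 1.54-fold, adjusted p = 0.00384), while a second Chek1 probe set changed by -0.24 and was not called. Summed signals of 13 proliferation genes were 12828 to 20890.2 with DMSO and 15008 to 23006 with ICRF-193, overlapping ranges that pool the replicate pairs. The 12 tested proliferation genes had a median change of 0.26, none called and 1 at an unadjusted limma p under 0.05. The sum of 5 hedgehog response genes was higher, 6512 to 7832 with DMSO and 8623 to 10465 with ICRF-193, and that of 2 GABAergic interneuron genes lower, 4306 to 5016 and 3096 to 3827, neither pair of ranges overlapping. The 5 tested oligodendrocyte lineage genes had a median change of -0.62, none called but all 5 at an unadjusted limma p under 0.05. The part of these sums in the members' values was not tested. The other damage kinases, Atm (0.10, adjusted p = 0.825) and Chek2 (0.18, 0.418), were not called. Trp73, the p53 relative that lies at the brightness limit in some groups, was at 0.51 (95% interval 0.11 to 0.90, adjusted p = 0.142).

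**Figure D2:**
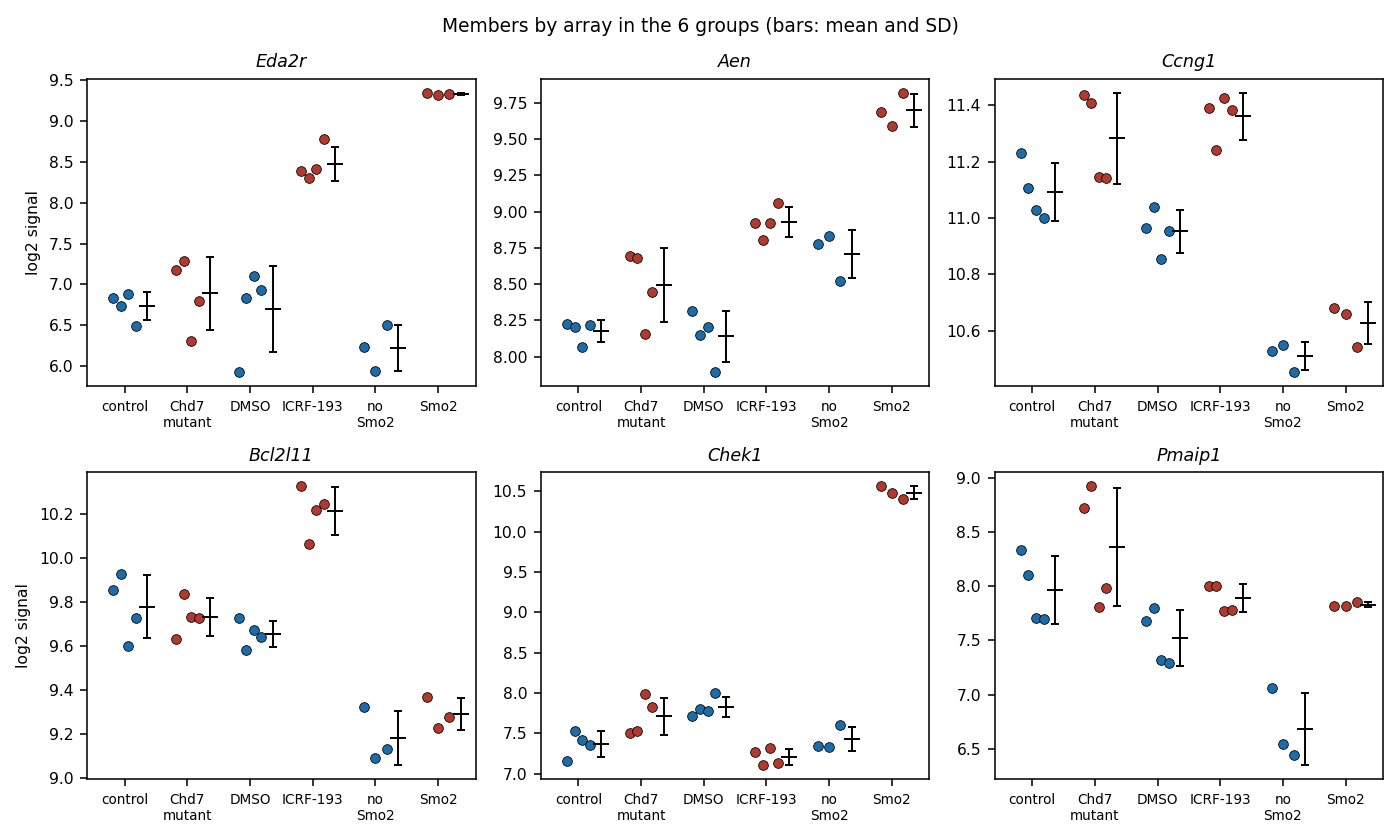
Log2 signal (y axis, scaled separately in each panel) of 6 members on each array of the 6 groups, with black bars for the mean and SD. Eda2r, Aen, Ccng1 and Bcl2l11 lay higher on all 4 ICRF-193 arrays than on the 4 DMSO arrays and Chek1 lower, while the 3 Smo2 arrays carried the highest Eda2r, Aen and Chek1.

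Cdkn1a and Mdm2, the classical arrest and feedback targets, did not pass. Cdkn1a, which encodes the cyclin-dependent kinase inhibitor p21, read 10.30, 10.26, 9.84 and 9.57 with DMSO and 10.34, 10.69, 10.43 and 10.32 with ICRF-193. The groups did not overlap, yet the difference of 0.45 (95% interval 0.06 to 0.85) had an adjusted p of 0.193, and 1 of its 2 bright probe sets was called at changes of 0.45 to 0.49. Mdm2 read 10.25, 10.10, 10.002 and 10.03 with DMSO and 10.05, 10.04, 10.07 and 10.22 with ICRF-193, and its mean difference had a 95% interval of -0.19 to 0.19 (adjusted p = 0.993), while its second bright probe set differed by 0.30 (SE 0.10, adjusted p = 0.164). Values near 0 were also found for Plk2 (0.03) and Rrm2b (0.01), although another Rrm2b probe set was called at -0.47. The remaining arrest genes, Btg2, Gadd45a, Trp53inp1 and Zmat3, lay between -0.20 and 0.23.

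Among the pro-death targets Pmaip1 (NOXA) stood at the border. It read 7.68, 7.80, 7.32 and 7.29 with DMSO and 8.004, 8.004, 7.77 and 7.78 with ICRF-193, which overlap across the 2 replicate pairs. Its difference of 0.37 was not called without a block (SE 0.13, adjusted p = 0.166) and was called with the replicate number as a block (SE 0.08, adjusted p = 0.0426), which brings the members called to 6 of 33 (18.2%), beside 8.79% of all genes. Phlda3, a pleckstrin homology protein that restrains Akt signalling, was at 0.49 (adjusted p = 0.111) and Perp, a membrane protein of p53-dependent apoptosis, at 0.39 (0.158). Bbc3 (PUMA) was at 0.11 (95% interval -0.16 to 0.37) and Ei24 at 0.02.

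No repair or stress gene was called without a block. Ddb2, the damaged DNA sensor of nucleotide excision repair, read 8.65, 8.70, 8.33 and 8.26 with DMSO and 8.86, 8.84, 8.80 and 8.996 with ICRF-193. All treated arrays were above all DMSO arrays, and the difference of 0.39 was not called (adjusted p = 0.0952). With the replicate pair as a block Ddb2 was called (adjusted p = 0.0465), and 7 of 33 members were (21.2%), beside 11.7% of all genes. Xpc and Polk, a recognition factor and a bypass polymerase, were at 0.17 and 0.26. The sestrins Sesn1 and Sesn2, which damp mTOR, were at 0.09 and 0.49, with another Sesn2 probe set at 1.59 (SE 0.48, adjusted p = 0.119), and Ddit4, another mTOR inhibitor, at -0.13. In the core machinery Apaf1, Casp9, Bid, Mcl1, Bcl2 and Bcl2l1 lay between -0.17 and 0.15, none of them called. At an unadjusted p under 0.05 the members of this comparison number 11 in place of 5, a count for which no share of all genes was computed.

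The 5 called members were called again when any 1 array was left out, which keeps the like array of its replicate pair. With pair means as samples 0 members were called. With only 2 arrays a side the calls thinned to Phlda3 within replicates 1 and 2 and Eda2r within replicates 3 and 4, although Eda2r, Aen, Ccng1, Bcl2l11 and Chek1 kept their direction in both pairs. With arrays centred on their medians Ccng1 (0.35) and Bcl2l11 (0.50) were not called, nor was Aen (0.72) as the mean of its probe sets, nor Chek1 (-0.24) without probe sets marked as shared between transcripts.

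The Chd7 experiment asks which transcripts depend on Chd7. Phlda3 and Btg2 rose and Mdm2 fell, by 1.18-fold, 1.34-fold and 1.36-fold for Mdm2, Btg2 and Phlda3. The 3 calls were 9.09% of the members, beside 8.89% of all genes. At an unadjusted p under 0.05 limma gave 7 members, a count for which no share of all genes was computed. Of 8 fits that each left out 1 array, Phlda3 kept its call in 2 and Btg2 and Mdm2 each in 1. Within replicates 1 and 2 alone 4 members were called, Aen, Atm, Eda2r and Perp, all higher and all outside these 3. Within replicates 3 and 4 alone 6 were called, of which only Btg2 was among the 3. The others were Chek1 and Ddit4, higher, and Cdkn1a, Perp and Plk2, lower. No share of all genes was computed for the fits within pairs.

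Phlda3 read 7.64, 7.83, 7.65 and 7.63 in control arrays and 8.19, 8.35, 8.06 and 7.92 in mutant arrays. The groups did not overlap, and it rose by 0.45 (SE 0.10, 1.36-fold, limma adjusted p = 0.0295). Btg2, an antiproliferative transcription cofactor of granule cell differentiation and a p53 target, read 7.93, 8.23, 7.97 and 7.77 in control arrays and 8.44, 8.40, 8.44 and 8.32 in mutant arrays. Its rise was 0.43 (SE 0.10, 1.34-fold, adjusted p = 0.0317), and 1 of its 2 bright probe sets was called.

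Mdm2 read 10.05, 10.06, 10.11 and 10.11 in control arrays and 9.85, 9.87, 9.82 and 9.85 in mutant arrays. These are narrow and separate ranges, and the fall was 0.24 (SE 0.05, 1.18-fold, adjusted p = 0.023). Its second bright probe set changed by -0.04 and was not called, and the mean over all Mdm2 probe sets was higher in the mutant by 0.17 (adjusted p = 0.226). The number of members called ranged from 0 to 2 when 1 array was left out. It was 0 without control replicate 1, 3 or 4 or without mutant replicate 1, 2 without control replicate 2, and 1 without mutant replicate 2, 3 or 4.

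Several marker sums moved with genotype in the same arrays. The oligodendrocyte lineage sum was 4486 to 10798.5 in control and 13741 to 17499 in mutant arrays, the astrocyte sum 3837 to 8713 and 6151 to 17999.7, and the fibroblast and pericyte sum 2768 to 5495 and 5341 to 10739.6. The granule lineage sum was 90416 to 92274 in control and 78769 to 85433 in mutant arrays, which do not overlap. The proliferation sum was 9066 and 9557 in control against 12030 and 11888 in mutant replicates 1 and 2, and 12551 and 12317 against 19819 and 18295 in replicates 3 and 4, so the mutant was higher within both pairs. Of 6 named oligodendrocyte genes, 6 astrocyte genes and 6 fibroblast and pericyte genes none was at the floor on all arrays. The 3 named Y-linked genes summed to 1221 to 1746 in control and to 48 to 399 in mutant arrays, the lower value being the floor. Every mutant array was thus below every control array, so genotype and the sex of the pups cannot be told apart here. The part of these sums in the members' values was not tested.

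The changes of Cdkn1a and Perp differed between the 2 replicate pairs. Cdkn1a read 11.45, 11.50, 10.77 and 11.09 in control replicates 1 to 4 and 11.62, 11.68, 9.77 and 9.69 in mutant replicates 1 to 4. The mutant differed by 0.18 in replicates 1 and 2, which was not called (adjusted p = 0.1999), and fell by 1.20 in replicates 3 and 4 (adjusted p = 0.0100), and the change in the second pair minus that in the first was -1.38 (SE 0.15, limma adjusted p = 0.0119). Averaged over both pairs the difference was -0.51, with an interval of -1.66 to 0.63.

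Perp read 7.95, 7.87, 8.18 and 8.05 in control replicates and 8.89, 8.74, 7.58 and 7.47 in mutant replicates. The mutant was higher by 0.91 in the first pair (adjusted p = 0.0121) and lower by 0.60 in the second (adjusted p = 0.0205), a difference of -1.50 between pairs (SE 0.12, adjusted p = 0.00412). These 2 of 33 members (6.06%) were called for a difference between pairs, beside 2.62% of all genes. The pairs were recognised from the data, so this test describes them and was not planned from the labels. Its p-values measure only the spread between the like arrays of a pair, which may be technical. Plk2, a polo-like kinase induced by p53 and by neuronal activity, was lower by 0.07 in the first pair and by 0.50 in the second, a difference that was not called (adjusted p = 0.136).

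Marker sums also differed between the pairs of mutant arrays. The astrocyte sum was 6298 and 6151 in mutant replicates 1 and 2 and 17999.7 and 17276 in replicates 3 and 4, and the microglia sum was 782 and 1004 against 3418 and 3199. Purkinje cell markers summed to 2190.46 and 2299 in the first pair and to 377 and 310.0 in the second. Control arrays differed between pairs as well. Their astrocyte sums were 4286 and 3837 against 8713 and 8209, and their microglia sums 2298 and 2309 against 4274 and 4560. Their Purkinje sums were 1052 and 1032 against 504 and 524. The mutant Purkinje sum was thus above control in the first pair and below it in the second, and the microglia sum below control in both. The Y-linked sums were 351 and 399 in mutant replicates 1 and 2 and 58 and 48 in replicates 3 and 4. In control they were 1746 and 1685 against 1270 and 1221. The part of these sums in the Cdkn1a and Perp values was not tested.

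**Figure D3:**
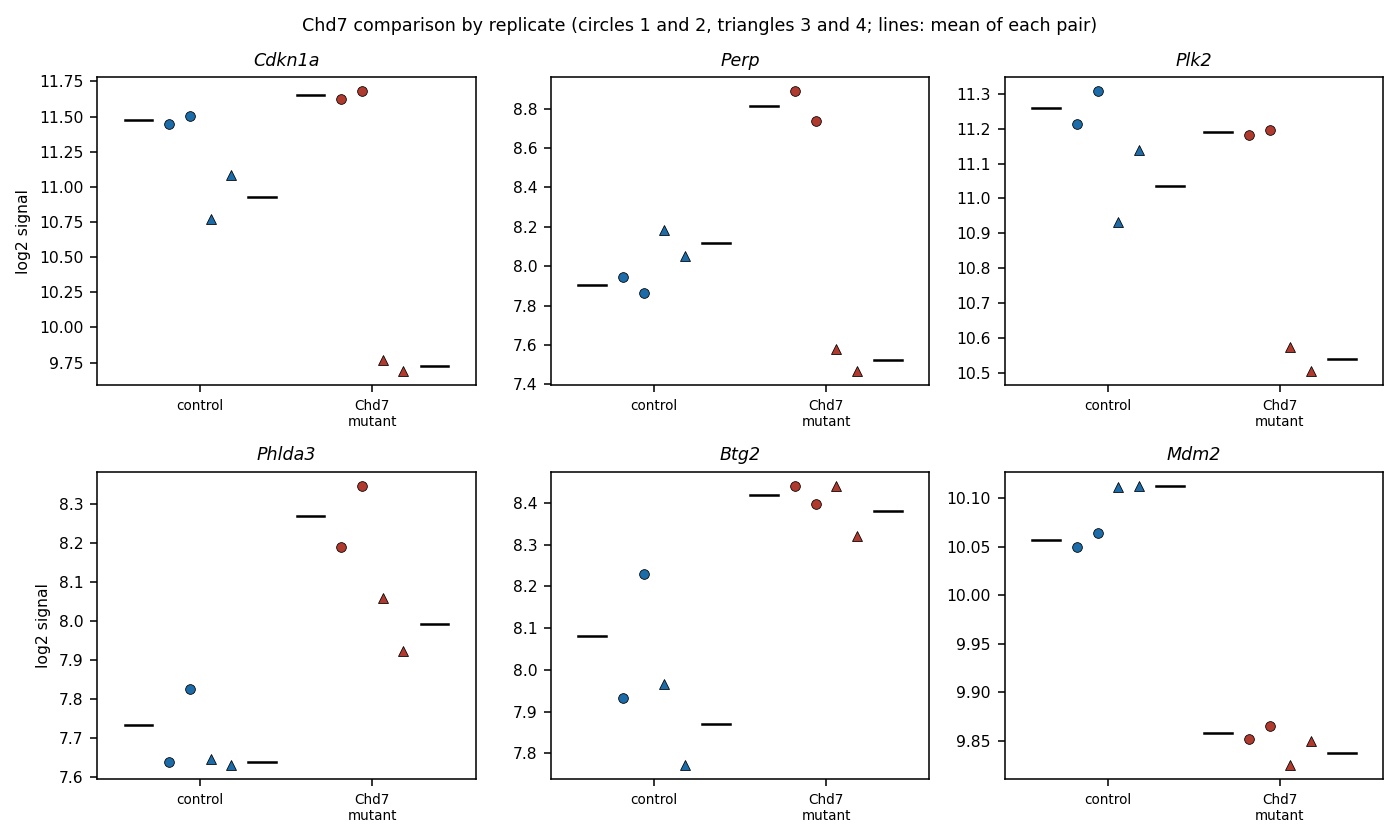
Log2 signal (y axis) of 6 members on the control and Chd7 mutant arrays, circles for replicates 1 and 2, triangles for replicates 3 and 4 and black lines for the mean of each pair. Cdkn1a and Perp were higher in the mutant circles and lower in the mutant triangles than in the matching controls, while Phlda3 and Btg2 were higher and Mdm2 lower in both pairs.

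The other members of the Chd7 comparison were not called. Atm read 8.26, 8.41, 8.78 and 8.68 in control and 8.85, 8.80, 8.94 and 8.83 in mutant arrays, which do not overlap, and differed by 0.32 (adjusted p = 0.125). Chek1 was at 0.35 (0.131) and Chek2 at 0.33 (0.344). Aen was at 0.32 (0.146), and its dimmer probe set was called at 0.54. Bid was at 0.30 (0.155), Bcl2 at -0.28 (0.195) and Pmaip1 at 0.40 (95% interval -0.23 to 1.02). Eda2r, the gene with the largest ICRF-193 rise among the members, was at 0.15 (95% interval -0.33 to 0.63). With the replicate pair as a block 8 of 33 members were called (24.2%), beside 21.9% of all genes in the same fit, namely Phlda3, Btg2, Mdm2, Pmaip1, Aen, Ccng1, Bid and Atm. With pair means as samples none was called.

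Whether a member moved differently in the ICRF-193 and Chd7 experiments was tested as the difference of the 2 changes, in 1 fit of 16 arrays that share no controls. Of the 33 members 3 differed (9.09%), beside 6.49% of all genes. Eda2r changed by 1.62 more with ICRF-193 than in the mutant (SE 0.34, limma adjusted p = 0.0105) and Bcl2l11 by 0.61 more (SE 0.11, adjusted p = 0.00398). For Chek1 the difference was -0.97 (SE 0.16, adjusted p = 0.00181), since it fell by 0.62 with ICRF-193 and stood at 0.35 in the mutant. Aen and Ccng1, called with ICRF-193 and not in the mutant, did not pass this test, nor did Phlda3, Btg2 and Mdm2, called in the mutant and not with ICRF-193. With the replicate pair as a block Aen passed as well (0.47, adjusted p = 0.0490), for 4 members (12.1%) beside 14% of all genes.

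In the third experiment the damage kinases and Trp73 rose together with Smo2. Of 22 tested p53 targets 8 fell and 5 rose, neither share being above that of all genes. These changes stand against a background in which 68.6% of all genes were called, 39% lower and 29.7% higher. The summed signal of 13 proliferation genes was 12189 to 12706 without Smo2 and 96929 to 98010.5 with it, and that of 9 granule lineage genes 96242 to 99596 and 63455 to 68868. The part of cell division in the values below was not tested.

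All 4 tested members of the kinase and p53 family group rose. Chek1 read 7.35, 7.33 and 7.60 without and 10.56, 10.48 and 10.40 with Smo2, a rise of 3.06 (SE 0.09, 8.32-fold, limma adjusted p = 3.14e-06). Chek2 read 6.83, 6.28 and 6.54 without and 9.34, 9.33 and 9.37 with Smo2 and rose by 2.79 (SE 0.14, 6.94-fold, adjusted p = 1.34e-05). Both checkpoint kinases were thus several-fold higher on every Smo2 array. Atm read 8.56, 8.47 and 8.39 without and 9.49, 9.47 and 9.41 with Smo2, and Trp73 6.49, 5.92 and 6.70 and 7.52, 7.62 and 7.25. Their rises were smaller, at 0.99 (SE 0.06, adjusted p = 3.77e-05) and 1.09 (SE 0.21, adjusted p = 0.00421).

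**Figure D4:**
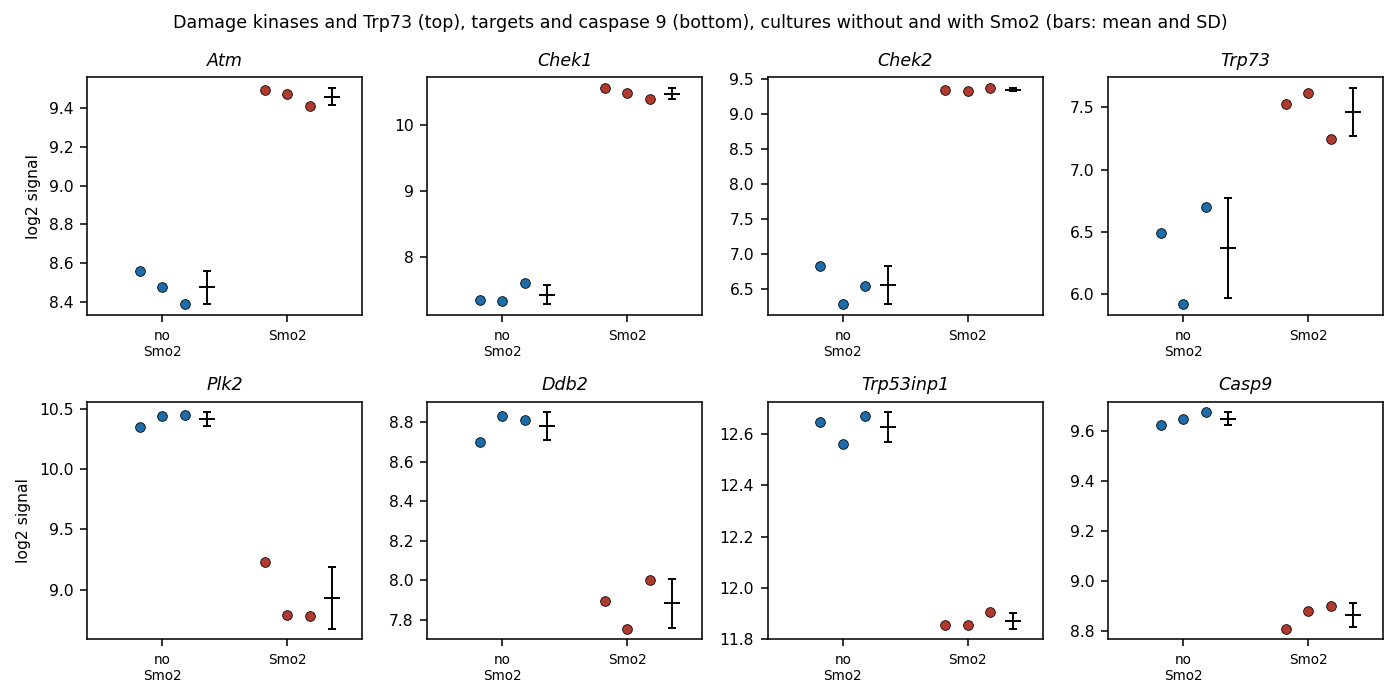
Log2 signal (y axis, scaled separately in each panel) of 8 members on the 3 arrays without and the 3 arrays with Smo2, with black bars for the mean and SD. Atm, Chek1, Chek2 and Trp73 lay higher on all Smo2 arrays, and Plk2, Ddb2, Trp53inp1 and Casp9 lower.

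The p53 targets for receptors and death effectors split. Eda2r read 6.23, 5.94 and 6.50 without and 9.34, 9.32 and 9.33 with Smo2, a rise of 3.11 (SE 0.14, 8.61-fold, adjusted p = 1.05e-05). Aen rose by 0.99 (SE 0.10, adjusted p = 0.000275) from 8.78, 8.83 and 8.52 to 9.69, 9.59 and 9.82. Pmaip1 rose by 1.15 (SE 0.16, adjusted p = 0.00101) from 7.06, 6.54 and 6.44 to 7.82, 7.81 and 7.86. Eda2r and Aen were therefore called higher with both ICRF-193 and Smo2, in experiments with separate controls.

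Perp and Bbc3 fell. Perp read 8.52, 8.03 and 7.98 without and 7.20, 7.08 and 7.65 with Smo2 (-0.86, SE 0.20, adjusted p = 0.00923). Bbc3, whose product PUMA binds all the protective Bcl2 proteins, read 8.69, 8.33 and 8.46 without and 7.29, 7.88 and 7.75 with Smo2 (-0.85, SE 0.17, adjusted p = 0.00506). The BH3-only genes Pmaip1 and Bbc3 thus changed in opposite directions. Phlda3 (0.12) and Ei24 (-0.12) were not called.

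Among arrest and feedback genes Plk2 fell most, from 10.35, 10.44 and 10.45 to 9.23, 8.79 and 8.78 (-1.48, SE 0.13, 2.79-fold, adjusted p = 0.000131). Trp53inp1, a stress protein that promotes p53 phosphorylation, fell from 12.65, 12.56 and 12.67 to 11.85, 11.85 and 11.91 (-0.75, SE 0.05, adjusted p = 5.68e-05), although 1 of its 2 bright probe sets changed by only -0.15 and was not called. Gadd45a, a growth arrest and repair factor, rose by 0.43 (SE 0.08, adjusted p = 0.00282). Cdkn1a was at -0.26 (95% interval -0.59 to 0.06, adjusted p = 0.125), Mdm2 at 0.10, Ccng1 at 0.12, Zmat3 at 0.01 and Btg2 at 0.40 (adjusted p = 0.0602), none of them called. Other probe sets of 2 of these genes were called, for Btg2 at 0.62 (adjusted p = 0.00136) and for Ccng1 at 0.33 (adjusted p = 0.0167).

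Of the 7 tested stress and repair targets 4 fell and 1 rose, where 39% of all genes fell and 29.7% rose. Ddit4 read 12.82, 12.70 and 12.66 without and 12.01, 11.98 and 12.07 with Smo2 (-0.71, SE 0.06, adjusted p = 0.000128). Sesn1 fell by 0.51 (adjusted p = 0.0135) and lost its call when arrays were only centred on their medians, while Sesn2 was at 0.18. Ddb2 read 8.70, 8.83 and 8.81 without and 7.89, 7.75 and 7.9995 with Smo2 (-0.90, SE 0.08, adjusted p = 0.000135), and both of its bright probe sets fell. Rrm2b, the p53-induced subunit of ribonucleotide reductase, fell by 0.40 (adjusted p = 0.0178) but was not called without no-Smo2 replicate 2, with arrays centred on their medians, without the brightness limit or with the gene-by-gene test of the methods after adjustment. Polk rose by 0.73 (SE 0.09, adjusted p = 0.000557), and Xpc was at -0.41 (adjusted p = 0.101).

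In the core apoptosis machinery the protective gene Bcl2 and the adaptor Apaf1 rose and a caspase and a BH3-only gene fell. Casp9, the initiator caspase of the mitochondrial route, read 9.62, 9.65 and 9.67 without and 8.81, 8.88 and 8.90 with Smo2 (-0.79, SE 0.05, adjusted p = 3.97e-05), and 1 of its 2 bright probe sets was called. Bid read 9.05, 9.20 and 9.20 without and 8.45, 8.41 and 8.67 with Smo2 (-0.64, SE 0.09, adjusted p = 0.00103), with all 3 of its bright probe sets called lower. Apaf1, which forms the apoptosome with caspase 9, rose by 0.37 (adjusted p = 0.00995). Bcl2 rose by 0.40 (adjusted p = 0.0156) and was not called without Smo2 replicate 2. Bcl2l11 (0.11), Bcl2l1 (-0.07) and Mcl1 (-0.06) were not called, although 1 of 4 Bcl2l11 and 2 of 6 Mcl1 bright probe sets were. When arrays were only centred on their medians the split of called members moved from 11 higher and 10 lower to 16 higher and 8 lower. No share of all genes was computed for that setting, so the shift cannot be read as particular to the members.

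Trp73 reached the brightness limit in 4 and Eda2r in 5 of the 6 group means, and their lowest group means were 6.09 and 6.22. The limit was applied to the mean over all arrays, which the groups where they are high raise. The remaining 4 members were not tested. Trp53, the gene for p53 itself, and Bax were named by no probe set of 1 symbol and were not analysed here. Fas and Tnfrsf10b, both death receptors, lay below the brightness limit in every group mean. Fas averaged 5.32 over all arrays with 5 of 22 at the floor of 4 on the log2 scale, and Tnfrsf10b averaged 4.46 with 11 at the floor. Without the limit neither was called, the adjusted p of limma being 0.651 for Fas and 0.501 for Tnfrsf10b with ICRF-193, 0.867 and 0.857 in the mutant, and 0.985 and 0.206 with Smo2.

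Further genes of the same pathways were read from lists of related genes. The counts called in these lists stand beside shares of all genes of 3.14% higher and 3.46% lower with ICRF-193. In the mutant those shares were 5.07% and 3.82%, and with Smo2 29.7% and 39%. No share of all genes was computed at an unadjusted p. Of 19 further p53 targets tested, 2 rose and none fell with ICRF-193, Ckap2, a spindle protein, by 1.11 (limma adjusted p = 0.0273) and Trp53i11 by 0.42 (adjusted p = 0.0443). In the Chd7 mutant 4 rose and none fell, among them the sulfatase Sulf2 by 1.16 (adjusted p = 0.0423), the adenylate kinase Ak1 by 0.56 (adjusted p = 0.000866) and the ribosomal protein paralog Rps27l by 0.25 (adjusted p = 0.0355), with the lipase Abhd4 at 0.54 (adjusted p = 0.00262). Smo2 raised 6 and lowered 9 of them, with Ckap2 (2.92) and the mitotic genes Gtse1 (2.77) and Psrc1 (2.62) up and the immediate early gene Ier3 (-1.63) down. Ckap2 was called higher with both ICRF-193 and Smo2. At an unadjusted p under 0.05 limma gave 4 of these 19 genes with ICRF-193 and 7 in the mutant, and the gene-by-gene test of the methods called 0 and 3 after adjustment.

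Of 30 genes of checkpoint control and double strand break repair none was called with ICRF-193, where their median change was 0.07, 1 had an unadjusted limma p under 0.05 and the gene-by-gene test of the methods called 0. In the mutant the replication protein Rpa2 rose by 0.48 (adjusted p = 0.0386) as the single call. With Smo2 25 rose and 1 fell, with a median of 1.26, led by Rpa2 (3.20), Brca1 (3.02), the mitotic brake Wee1 (2.64) and the recombination gene Rad51c (2.47). All 12 tested proliferation genes rose in that comparison as well, with a median of 3.23. Chek1 and Chek2, at 3.06 and 2.79, lay near the largest changes of this list and above its median.

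The upstream regulators of p53 changed little outside Smo2. Of 10 tested, Trp53bp2, whose product ASPP2 steers p53 to death genes, rose by 0.43 with ICRF-193 (adjusted p = 0.0281), and none was called in the mutant (1 at an unadjusted limma p under 0.05, 0 by the gene-by-gene test of the methods). With Smo2 5 fell, among them the break-site protein gene Trp53bp1 (-0.66), the phosphatase gene Ppm1d (-0.31) and Usp7 (-0.23), and the ligase gene Cop1 rose (0.45). Of 14 caspase and mitochondrial genes only Casp6 was called with ICRF-193, lower by 0.50 (adjusted p = 0.0161), and none in the mutant (1 unadjusted by limma, 0 by the gene-by-gene test). With Smo2 5 rose, including Cycs (0.66), Casp2 (0.62), Casp6 (0.50) and Diablo (0.47), and 2 fell. Among 8 further Bcl2 family genes none was called with ICRF-193 (2 unadjusted by limma, 0 by the gene-by-gene test) or in the mutant (5 and 0), while Smo2 raised 2, with Bok at 2.74, and lowered 4, including Hrk (-1.06), Bcl2l2 (-0.72) and Bnip3 (-0.65). With Smo2 2 of 9 nucleotide excision repair genes rose, Ercc1 and Ddb1, and of 5 death receptor signalling genes 3 rose and 1 fell. No gene of these 2 lists was called in the other experiments, where limma gave 2 and 1 unadjusted with ICRF-193 and 0 and 1 in the mutant, and the gene-by-gene test called 0.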

How the data were processed

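The authors deposited 1 table of intensities on a linear scale, 45101 probe sets on 22 Affymetrix arrays. How probes were summarised is not given in the sources consulted. The 2% trimmed mean was 500 on every array. Signals were floored at 16, taken to log2 and, since array medians spanned 6.33 to 6.81 (limit 0.2), quantile normalized. Each gene was read from its brightest probe set among 34958 with 1 symbol (932 carry several and 9211 none), and genes averaging at least 6.44 were kept. Groups were compared with limma 3.58.1 in R 4.3.3 after a test on simulated data. Plots used matplotlib 3.10.9. Same-numbered arrays deviated together in the Chd7 (r 0.39 to 0.42) and ICRF-193 (0.28 to 0.41) experiments. Differently numbered arrays of the same replicate pair did so about as much (0.38 to 0.44 and 0.30 to 0.35). Across pairs r was -0.45 to -0.39 and -0.43 to -0.21. The shared deviation thus followed the pair, and nothing here shows that samples were matched by number. Fits blocked by pair and by number were run. In the Smo2 experiment same-numbered arrays had r of -0.01 to 0.03. None (0) of the 231 pairs of arrays were identical. All 37 members are accounted for, and from other lists up to 4 called genes with the largest change were named. Members, lists, marker sets and tests were chosen with earlier results of these data known. The alternatives changed the normalization, filter, floor, probe set choice, test, variance model and pairing.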

Additional observations from a re-analysis of the deposited data

Results flagged for a closer look

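On 4 of 132 sets of 4 arrays (3.03%) a single array stood apart from the other 3 of its group. The rate of about 1 in 20 by chance holds for independent arrays. These groups were made of like pairs, so it need not hold here. Aen was lowest on control replicate 3 at 8.07 (others 8.20 to 8.22), and Phlda3 was highest on control replicate 2 at 7.83 (others 7.63 to 7.65). Apaf1 was lowest on DMSO replicate 2 at 9.60 (others 9.78 to 9.80), and Mdm2 was highest on ICRF-193 replicate 4 at 10.22 (others 10.04 to 10.07). The effect of the Chd7 mutation differed between replicate pairs for Cdkn1a (-1.38, limma adjusted p = 0.0119) and Perp (-1.50, adjusted p = 0.00412), each the change in replicates 3 and 4 minus that in replicates 1 and 2. These p-values measure only the spread between the like arrays of a pair, which may be technical. The pairs themselves were recognised from the data.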

How the results depend on the processing

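The 3 Chd7 calls became 1 without a filter on dim genes, 1 with the methods' t-test after adjustment (5 before it), 8 with the replicate pair as a block, 6 within replicates 3 and 4, 0 with pair means as samples and 0 to 2 with 1 array left out. The 5 ICRF-193 calls became 3 with arrays centred on their medians, with a filter at 8 or with the mean over a gene's probe sets, 11 with the unadjusted t-test, 1 within either replicate pair and 0 with pair means, and stayed at 5 with any array left out. The 3 differences between these experiments became 1 with a filter at 8, with the mean over probe sets or within replicates 1 and 2, 5 within replicates 3 and 4, 6 with the unadjusted t-test and 0 with pair means, and stayed at 3 with any array left out. The 21 Smo2 calls ranged from 16 to 24, and from 20 to 22 with 1 array left out. With the replicate number as a block the counts were 3, 6, 22 and 3 for Chd7, ICRF-193, Smo2 and the difference. Numbers pair no Smo2 samples, where the block added Cdkn1a, and apart from Pmaip1 with ICRF-193 it changed no other call. The direction reversed, with a call in 1 or both settings, for Mdm2 in the mutant with the mean over its probe sets (0.17), for Perp within replicates 3 and 4 (-0.60) and for Mcl1 with Smo2 on another probe set, read without shared-transcript probe sets (0.51). Fewer arrays remain within pairs, and fewer genes are tested at the higher filter. Of the alternatives here, only the blocked fits of Chd7, ICRF-193 and their difference had a share of all genes computed. The other counts cannot be set against all genes. The cause of the other changes was not tested. Fitting every bright probe set was added after seeing the data and left all 4 counts as they were.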
